A study of Mus musculus with 36 samples.

Results

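The antiviral effectors of the type I interferon response are the genes whose products find viral nucleic acid, block the steps of a viral life cycle or raise the cell's readiness to do so. A list of 44 of them was taken by gene name, and all 44 had a row among the 16416 named gene rows of the deposited table. All 44 were also among the 11656 genes that passed the filter on low values, a log2 value of 3.32 or more, which is 10 unlogged, in 3 or more libraries. No member came near that floor: the lowest member value in any library was 6.52. They are described here in 9 groups by what their products do.

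Macrophages grown from mouse bone marrow gave 36 RNA libraries, read by single-end sequencing with 75 bp reads. The cells carried the D310N form of Tnip2 or its wild-type (WT) form, and each genotype was sampled before treatment (0 min) and 30, 60, 120, 240 and 360 min after lipopolysaccharide (LPS) at 100 ng/ml. Each of the 12 groups, 6 of D310N and 6 of WT cells, had 3 libraries. All groups shared the same culture: RPMI with 10% FCS and 10% L929 supernatant, the source of M-CSF, for 7 days on plates to which cells do not adhere. Tnip2 encodes ABIN-2, a ubiquitin-binding protein and a partner of the kinase Tpl2, which it keeps stable. The mutation is known here from the sample titles alone (the table header writes D309N), since gene-level values cannot show a single base. The labels name no sex, age or strain and do not say how many animals or cultures lie behind the replicate numbers, so p-values measure the spread between these libraries, which may be technical.

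Values are the log2-scale normalised values as deposited. Differences are D310N minus WT, or LPS-treated minus 0 min, on that scale with the standard error (SE) of limma's fit over all 36 libraries and n = 3 libraries per group. Adjusted p is limma's with Benjamini-Hochberg adjustment over the 11656 genes, and a gene is called at an adjusted p under 0.05. Differences of genes given without a p passed this threshold unless said otherwise. No counts were among the values, so read depth is unknown. The median of all values in a library ranged from 6.83 to 7.20. WT replicate 1 at 360 min stood apart, with a root mean square deviation from its group of 0.246 over all tested genes, against 0.0837 to 0.177 in the other 35 libraries. Over these genes it was also the one library of 36 that lay closer to another time of its genotype than to its own: its root mean square distance was 0.369 from the mean of the other 2 WT libraries at 360 min and 0.190 from the WT mean at 240 min. Over the 44 members these distances were 0.271 and 0.0602. Over the members this was not particular to it: 8 of the 36 libraries lay closer to another time, among them all 3 WT libraries at 0 min. The library keeps its label, WT replicate 1 at 360 min, throughout. The main results at 360 min are also given without it, and the difference at that time had another sign without it for 10 members, of which 0 were called either way. All 12 macrophage markers passed the filter, and their summed level (log2 of the summed linear values) spanned 18.2 to 18.6 in D310N libraries and 18.3 to 18.6 in WT libraries. On average over the times 9 of the 12 were called lower and 3 higher in D310N, with differences between -0.18 and 0.21. Of 6 markers of plasmacytoid dendritic cells, the professional interferon producers, 4 passed; their summed level spanned 12.7 to 15.1 in D310N and 12.8 to 15.1 in WT libraries, and Bst2, itself a member here, was the one called on average. The defining markers Siglech and Ly6d did not pass, with highest values of 0.39 and 0.26. In the lists for conventional dendritic cells 3 of 5 passed (2 higher on average in D310N), for neutrophils 2 of 6 (both higher), for B cells 1 of 5 (higher), for T and NK cells 1 of 6 (Cd4, lower), for fibroblasts 1 of 5 (higher) and for red and mast cells 0 of 5, with summed levels of at most 7.19 in any library. Their part in the results was not tested. In these bulk libraries a smaller share of interferon-responding cells and less RNA per cell cannot be told apart.

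LPS engages TLR4, and its TRIF branch activates IRF3, which turns on interferon beta (Ifnb1). The secreted interferon binds the receptor IFNAR on the same and neighbouring cells. Kinases bound to the receptor then activate a transcription factor complex that contains IRF9 and STAT2, which binds the interferon-stimulated response element in the promoters of antiviral genes. Macrophages also release a little interferon beta without a stimulus, and this tonic signal keeps the same genes expressed at a basal level. IRF7, itself an interferon-induced gene, adds a second round of interferon synthesis.

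Promoter sequences from RefSeq (GRCm38.p6) were matched by symbol to 34 of the 44 members. In the window from 250 bases before to 50 bases after the start of each gene, 13 of the 34 (38.2%) held GAAA, any 2 bases and GAAA on either strand, the core of the response element. Of all 27025 genes with a listed promoter 3.99% held it, and of the 8962 tested genes outside the list 3.89%. A gene with several listed promoters counted when any of them held it. In the 250 bases before the start alone the counts were 9 of 34 members (26.5%), against 3.46% of all 27025 genes and 3.35% of the other tested genes. The 8 promoters shown are those of Ifit1, Ifit3, Isg15, Oas3, Oas1a, Oas1g, Bst2 and Rsad2, members whose values are given further on and that hold the letters close to the start. Each line gives the 170 bases just before the start, 5′ to 3′ on the strand of the gene, and capitals mark the matches (on the other strand they read TTTC, any 2 bases and TTTC).
Ifit1: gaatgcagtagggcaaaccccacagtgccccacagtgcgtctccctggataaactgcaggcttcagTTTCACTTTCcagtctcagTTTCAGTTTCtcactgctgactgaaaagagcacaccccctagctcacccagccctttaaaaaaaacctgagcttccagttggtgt
Ifit3: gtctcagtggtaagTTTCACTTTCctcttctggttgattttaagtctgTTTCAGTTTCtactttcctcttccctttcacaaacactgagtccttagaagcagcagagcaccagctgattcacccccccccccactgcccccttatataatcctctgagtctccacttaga
Isg15: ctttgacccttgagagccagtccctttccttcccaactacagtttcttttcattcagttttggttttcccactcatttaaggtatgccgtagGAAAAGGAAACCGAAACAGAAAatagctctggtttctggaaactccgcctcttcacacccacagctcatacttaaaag
Oas3: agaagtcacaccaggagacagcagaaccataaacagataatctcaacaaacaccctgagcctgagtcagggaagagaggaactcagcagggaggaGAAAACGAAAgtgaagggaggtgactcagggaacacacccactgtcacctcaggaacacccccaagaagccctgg
Oas1a: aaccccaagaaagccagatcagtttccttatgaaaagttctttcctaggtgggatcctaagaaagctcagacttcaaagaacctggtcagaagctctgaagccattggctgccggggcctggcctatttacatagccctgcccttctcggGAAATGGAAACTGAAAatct
Oas1g: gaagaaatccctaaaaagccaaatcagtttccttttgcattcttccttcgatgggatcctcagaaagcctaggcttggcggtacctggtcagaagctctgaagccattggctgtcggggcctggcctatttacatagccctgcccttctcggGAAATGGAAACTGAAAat
Bst2: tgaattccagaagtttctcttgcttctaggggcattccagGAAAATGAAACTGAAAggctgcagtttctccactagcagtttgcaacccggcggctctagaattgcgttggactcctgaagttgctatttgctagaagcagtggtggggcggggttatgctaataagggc
Rsad2: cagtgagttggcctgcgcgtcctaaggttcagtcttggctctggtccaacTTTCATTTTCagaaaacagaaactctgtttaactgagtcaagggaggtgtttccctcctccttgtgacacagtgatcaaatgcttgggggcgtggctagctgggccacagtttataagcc
On GRCm38.p6 these stretches lie at chr19:34640719-34640888 (plus strand) for Ifit1, chr19:34583359-34583528 (plus) for Ifit3 and chr4:156200819-156200988 (minus) for Isg15. Those of the OAS genes, all on the minus strand, are chr5:120777660-120777829 for Oas3, chr5:120907526-120907695 for Oas1a and chr5:120887614-120887783 for Oas1g. Bst2 has chr8:71537473-71537642 and Rsad2 chr12:26456453-26456622, both on the minus strand. Both Ifit genes carry 2 separate matches, which begin 104 and 85 bases before the start in Ifit1 and 156 and 122 bases before it in Ifit3. Isg15 carries 3 matches that overlap one another, from 78 bases before the start on. Oas1a and Oas1g, neighbours of nearly the same sequence, hold the same overlapping pair of matches within 20 bases of the start. In the shares above each gene counts once, whatever its number of matches. A match is a match of letters, and no binding was measured.

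D310N macrophages held less RNA of the antiviral effectors than WT macrophages before LPS and through the first 120 min, and the gap narrowed at 240 and 360 min. At 0 min 34 of the 44 members were called lower in D310N, where 7.09% of all tested genes were. The counts were 41 at 30 min, 40 at 60 min and 41 at 120 min, against 7.78%, 7.96% and 9.72% of all genes. At 240 min 17 members were lower and at 360 min 8, against 10.0% and 9.52% of all genes. The median member difference was -0.29 at 0 min, -0.38 at 30 min, -0.36 at 60 min, -0.37 at 120 min, -0.14 at 240 min and -0.07 at 360 min. The median over all tested genes stayed between -0.01 and 0.01 at each time. Of the calls up to 120 min 24 of 34, 35 of 41, 34 of 40 and 38 of 41 held when any one of the 36 libraries was left out. Among those that did not were Parp14 (-0.20 ± 0.07) and Dtx3l (-0.21 ± 0.06) at 0 min.

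In direction the members were nearly uniform. Every member had a negative difference at 0, 30, 60 and 120 min, 40 did at 240 min and 35 at 360 min. limma called 0 members higher in D310N at any of the 6 times, and 0 at an unadjusted p under 0.05; under quantile normalisation 1 was called higher at 240 min. Of all tested genes 3.64%, 4.43%, 4.89%, 7.94%, 6.98% and 6.80% were called higher at the 6 times, in order. All 3 D310N libraries lay below all 3 WT libraries for 38 members at 0 min, 44 at 30 min, 41 at 60 min, 40 at 120 min, 36 at 240 min and 11 at 360 min. The same held for 19.1%, 18.7%, 19.6%, 16.1% and 21.6% of all tested genes from 0 to 240 min in order, and for 1398 of the 11656 at 360 min. Without WT replicate 1 at 360 min, 8 members were called lower at that time, 39 had a negative difference and the median difference was -0.08.

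Averaged over the 6 times, all 44 members were called lower in D310N, from -0.59 for Isg20 to -0.10 for Ifih1, with a median of -0.28. Of all tested genes 25.4% were called lower on average and 22.7% higher. With 1 mean per genotype and replicate number (3 against 3), 43 members were lower, against 18.1% of all genes; Ifih1 was the exception (-0.10, adjusted p = 0.0639). Counted over the single times, 3 members (Isg20, Ifi27l2a and Helz2) were called lower at all 6, 12 at 5, 21 at 4, 5 at 3, 1 (Znfx1) at 2 and 2 (Ifih1 and Samd9l) at 1. The largest gap fell at 30 min for 15 members, at 60 min for 8 and at 120 min for 21.

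**Figure D1:**
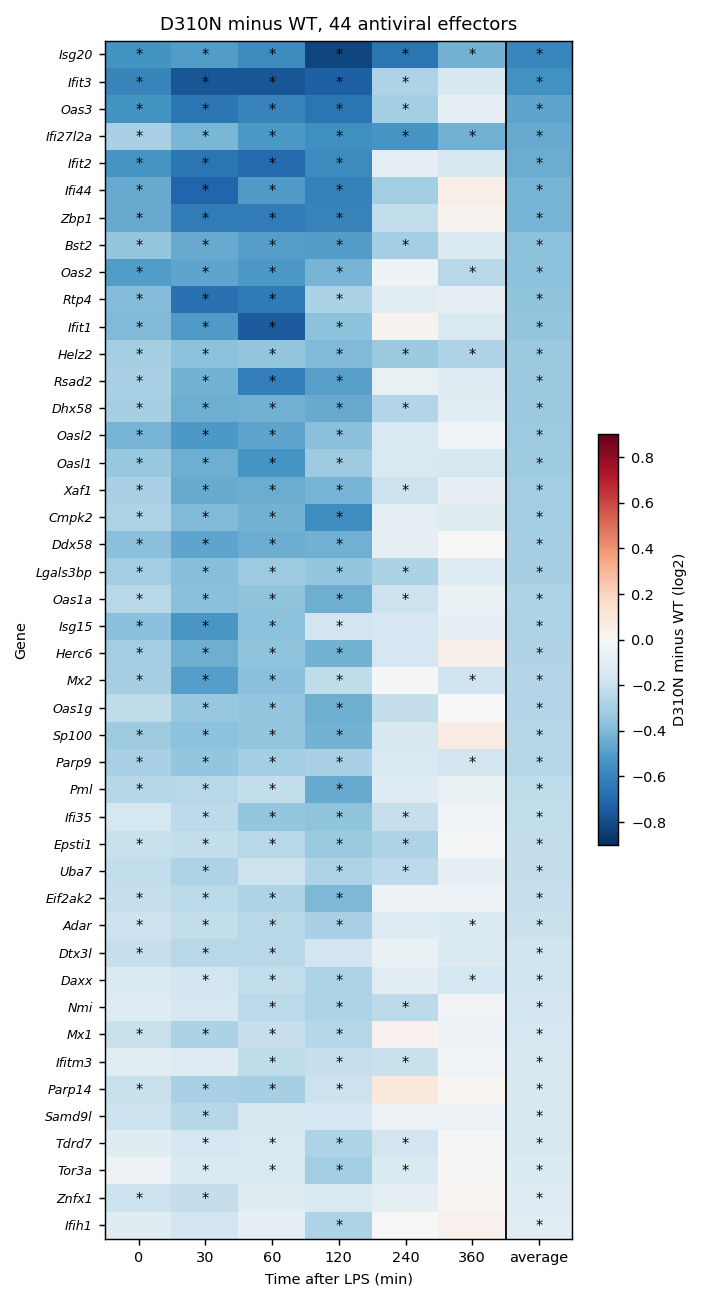
Difference D310N minus WT (log2, colour scale) of the 44 members at each time after LPS and on average over the 6 times, ordered by the average. A star marks an adjusted p under 0.05; the columns for 0 to 120 min are blue throughout, and stars thin out at 240 min (17) and 360 min (8).

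The IFIT proteins bind viral RNA and hinder its translation. Ifit1, Ifit2 and Ifit3 were lower in D310N at 0, 30, 60 and 120 min, with a median difference of -0.75 at 60 min. Ifit3 read 10.56, 10.38 and 10.39 in D310N, against 11.14, 11.10 and 10.86 in WT at 0 min. At 60 min it read 10.13, 10.35 and 10.28 in D310N, against 11.04, 11.10 and 10.92 in WT, and at 120 min 12.91, 12.87 and 12.79 in D310N, against 13.62, 13.63 and 13.52 in WT. The groups did not overlap at any of these times. The Ifit3 difference was -0.77 ± 0.07, adjusted p = 1.18e-08 at 60 min, a level 41.3% lower, and -0.28 ± 0.07, adjusted p = 0.00908 at 240 min. At 360 min Ifit3 read 14.66, 14.67 and 14.71 in D310N, against 14.96, 14.83 and 14.68 in WT, and WT replicate 3 fell within the D310N range.

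Ifit1 had the smallest average difference of the group and met WT early. It read 11.27, 11.40 and 11.36 in D310N, against 12.11, 12.12 and 12.04 in WT at 60 min, without overlap (-0.75 ± 0.08, adjusted p = 6.02e-08). At 240 min it read 15.51, 15.54 and 15.64 in D310N, against 15.53, 15.57 and 15.50 in WT, and the groups overlapped (0.03 ± 0.08, adjusted p = 0.844). Ifit2 differed by -0.53 ± 0.07 at 0 min and -0.57 ± 0.07 at 120 min, and stood at -0.08 ± 0.07 at 240 min, which was not called. The related genes Ifit3b, Ifit1bl1 and Ifit1bl2 differed by -0.64 ± 0.05, -0.58 ± 0.03 and -0.39 ± 0.06 on average over the times (all called). Reads that these near-identical genes share were divided by estimation, so the split among the family is uncertain.

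The OAS enzymes make short oligoadenylates on double-stranded RNA, which switch on the RNA-cutting enzyme RNase L; Oasl1 and Oasl2 are OAS-like proteins. Of the 6 members 5 were called lower at 0 min and all 6 at 30, 60 and 120 min, with medians of -0.38, -0.46, -0.50 and -0.43. Oas3 had the largest average difference of the group. It read 11.27, 11.25 and 11.09 in D310N, against 11.86, 11.74 and 11.62 in WT at 0 min and 11.47, 11.67 and 11.44 in D310N, against 12.30, 12.21 and 12.05 in WT at 120 min. The D310N libraries lay below every WT library at both times (-0.54 ± 0.09, adjusted p = 8.65e-05 and -0.66 ± 0.09, adjusted p = 3.50e-06). At 360 min Oas3 read 13.84, 13.86 and 13.87 in D310N, against 13.71, 14.08 and 14.05 in WT: WT replicate 1 lay below the D310N libraries and the other WT libraries above them.

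Oas1g had the smallest average difference. At 0 min it read 9.31, 9.07 and 9.14 in D310N, against 9.49, 9.50 and 9.21 in WT, with overlapping groups (-0.23 ± 0.08, adjusted p = 0.0552). At 120 min it read 9.75, 9.76 and 9.76 in D310N, against 10.25, 10.19 and 10.16 in WT, without overlap (-0.44 ± 0.08, adjusted p = 0.000101). Oasl1 and Oasl2 differed by -0.53 ± 0.06 and -0.47 ± 0.06 at 60 min. Oas2 differed by -0.50 ± 0.08 at 0 min and again by -0.25 ± 0.08 at 360 min, with -0.05 ± 0.08 at 240 min, not called, in between. Its call at 360 min was lost without any one of 4 of the 6 libraries of that time. Oas1a was called at 240 min (-0.19 ± 0.06), a call lost without any one of 5 of the 6. Oas1b and Oas1c, relatives with shared sequence, differed by -0.29 ± 0.04 and -0.23 ± 0.04 on average (both called), and the division of reads within the Oas1 cluster is uncertain. Oas1h, whose values were low, was not called on average (-0.003 ± 0.13).

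The sensors and RNA-acting enzymes are MDA5 (Ifih1), RIG-I (Ddx58) and LGP2 (Dhx58), which detect viral RNA in the cytosol, Zbp1, which detects left-handed nucleic acid and can trigger necroptosis, the kinase PKR (Eif2ak2), which halts translation, the editing enzyme Adar, and the RNA sensor Znfx1. Of these 7 members 6 were called lower at 0, 30 and 120 min and 5 at 60 min, and 1 at each of 240 and 360 min. Zbp1 read 9.09, 8.98 and 8.85 in D310N, against 9.60, 9.48 and 9.20 in WT at 0 min and 10.30, 10.29 and 10.20 in D310N, against 10.90, 10.92 and 10.78 in WT at 120 min. Neither time showed overlap, and the differences were -0.45 ± 0.08, adjusted p = 0.000303 and -0.60 ± 0.08, adjusted p = 4.82e-06. At 360 min Zbp1 read 13.22, 13.11 and 13.20 in D310N, against 12.95, 13.32 and 13.15 in WT, and the groups overlapped (0.03 ± 0.08, adjusted p = 0.833). Without WT replicate 1 the difference was -0.06 (adjusted p = 0.673).

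Ifih1 differed least of all 44 members. It read 11.69, 11.78 and 11.80 in D310N, against 11.88, 11.81 and 11.80 in WT at 60 min, with ranges that met (-0.08 ± 0.06, adjusted p = 0.508). Only at 120 min was it called, at 13.43, 13.46 and 13.58 in D310N, against 13.90, 13.78 and 13.64 in WT, where the groups did not overlap (-0.28 ± 0.06, adjusted p = 0.00176). Ddx58 differed by -0.48 ± 0.06 at 30 min and Dhx58 by -0.45 ± 0.05 at 120 min. Dhx58 was the sensor called at 240 min (-0.27 ± 0.05, adjusted p = 0.000500), and that call held without any one library. Adar was the one called at 360 min (-0.12 ± 0.04); without WT replicate 1 it stood at -0.08 (adjusted p = 0.196). Eif2ak2 differed by -0.40 ± 0.05 at 120 min and Znfx1 by -0.21 ± 0.05 at 30 min.

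Mx1 and Mx2 are dynamin-like GTPases that trap viral nucleocapsids. Both were called lower from 0 to 120 min. Mx2 read 7.94, 7.84 and 7.91 in D310N, against 8.20, 8.25 and 8.13 in WT at 0 min and 7.85, 7.85 and 7.86 in D310N, against 8.39, 8.25 and 8.41 in WT at 30 min, without overlap at either time (-0.49 ± 0.05, adjusted p = 2.30e-08 at 30 min). At 240 min Mx2 read 12.35, 12.46 and 12.41 in D310N, against 12.42, 12.46 and 12.37 in WT, with overlap (-0.01 ± 0.05, not called). At 360 min it read 12.11, 12.18 and 12.10 in D310N, against 12.37, 12.33 and 12.23 in WT, again without overlap (-0.18 ± 0.05, adjusted p = 0.0110), a call lost without D310N replicate 1 or 3. The Mx2 gene is annotated as a polymorphic pseudogene in GENCODE M21. Mx1 read 13.31, 13.26 and 13.32 in D310N, against 13.61, 13.56 and 13.48 in WT at 120 min, without overlap (-0.26 ± 0.06, adjusted p = 0.00209), and 14.87, 15.00 and 14.93 in D310N, against 14.88, 14.93 and 14.86 in WT at 240 min, with overlap (0.04 ± 0.06, not called).

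ISG15 is a ubiquitin-like protein that is joined to other proteins by the activating enzyme Uba7 and, in mouse, the ligase Herc6. Of the 3, 2 were called lower at 0 and 60 min and all 3 at 30 and 120 min. Isg15 read 9.76, 9.73 and 9.71 in D310N, against 10.39, 10.22 and 10.18 in WT at 30 min, without overlap (-0.53 ± 0.06, adjusted p = 1.38e-07). At 120 min it read 12.95, 12.82 and 12.77 in D310N, against 12.99, 12.97 and 13.08 in WT, and the D310N libraries still lay below the WT libraries but by less (-0.16 ± 0.06, adjusted p = 0.0471); that call was lost without any one of 24 libraries. Uba7 read 9.98, 10.10 and 9.95 in D310N, against 10.25, 10.29 and 10.16 in WT at 0 min, without overlap but not called (-0.22 ± 0.08, adjusted p = 0.0734). At 240 min it read 11.693, 11.941 and 11.741 in D310N, against 12.010, 12.064 and 11.998 in WT, without overlap (-0.23 ± 0.08, adjusted p = 0.0417), and this call was lost without any one of 5 of the 6 libraries of that time. Herc6 differed by -0.44 ± 0.07 at 30 min and -0.42 ± 0.07 at 120 min.

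The next group acts on membranes and nucleotides. Bst2 is tetherin, which holds budding virus at the cell surface; Ifitm3 blocks the fusion of virus with endosomes; Rsad2 is viperin, which makes a chain-terminating nucleotide, and Cmpk2 is a mitochondrial nucleotide kinase encoded next to it; Rtp4 is an interferon-induced receptor transporter protein. All 5 were called lower at 60 and 120 min, and 4 of 5 at 0 and 30 min. Bst2 read 11.09, 10.99 and 10.88 in D310N, against 11.43, 11.33 and 11.26 in WT at 0 min and 11.32, 11.28 and 11.10 in D310N, against 11.69, 11.69 and 11.84 in WT at 120 min. The groups stayed apart at both times (-0.35 ± 0.07, adjusted p = 0.00128 and -0.50 ± 0.07, adjusted p = 8.79e-06) and also at 240 min (12.36, 12.40 and 12.33 in D310N, against 12.68, 12.64 and 12.68 in WT; -0.30 ± 0.07, adjusted p = 0.00422). At 360 min Bst2 read 12.85, 12.88 and 12.84 in D310N, against 12.70, 13.10 and 13.14 in WT, and WT replicate 1 lay below all 3 D310N libraries.

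Ifitm3 read 13.13, 13.06 and 13.01 in D310N, against 13.25, 13.14 and 13.12 in WT at 0 min, with D310N replicate 1 inside the WT range (-0.10 ± 0.05, adjusted p = 0.151). At 120 min it read 13.49, 13.46 and 13.35 in D310N, against 13.60, 13.64 and 13.68 in WT and at 240 min 13.87, 13.97 and 13.95 in D310N, against 14.10, 14.15 and 14.14 in WT, without overlap at either. The difference was -0.20 ± 0.05, adjusted p = 0.00267 at 240 min, and the call held without any one library. Of its relatives, Ifitm2 was called lower on average over the times (-0.07 ± 0.02). Ifitm1 (-0.15 ± 0.08) and Ifitm6 (-0.05 ± 0.04) were not called. Rsad2 differed by -0.61 ± 0.07 at 60 min, Cmpk2 by -0.56 ± 0.09 at 120 min and Rtp4 by -0.67 ± 0.06 at 30 min. None of these 3 was called at 240 or 360 min, where their differences lay between -0.11 and -0.07.

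Parp9 and Dtx3l form a complex that ubiquitinates histones and viral proteins, and Parp14 is a related ADP-ribosyltransferase. All 3 were called lower at 0, 30 and 60 min and 2 at 120 min. Parp9 read 10.54, 10.65 and 10.47 in D310N, against 10.96, 10.87 and 10.87 in WT at 30 min, without overlap (-0.35 ± 0.06, adjusted p = 8.10e-05). At 360 min it read 12.92, 13.08 and 12.98 in D310N, against 13.26, 13.15 and 13.07 in WT, and D310N replicate 2 lay above the lowest WT library (-0.17 ± 0.06, adjusted p = 0.0438); without WT replicate 1 this was -0.12 (adjusted p = 0.175). Parp14 read 13.01, 13.19 and 13.12 in D310N, against 13.36, 13.42 and 13.43 in WT at 60 min, without overlap (-0.30 ± 0.07, adjusted p = 0.00194), and 15.98, 15.80 and 15.90 in D310N, against 15.85, 15.74 and 15.80 in WT at 240 min, with overlap (0.10 ± 0.07, not called). The exons of Parp9 and Dtx3l overlap on opposite strands, so reads of one could be counted for the other.

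Pml, Sp100 and Daxx are components of PML nuclear bodies, which silence incoming viral genomes. All 3 were called lower at 30, 60 and 120 min, and Pml and Sp100 also at 0 min. Sp100 read 11.19, 11.18 and 11.05 in D310N, against 11.51, 11.50 and 11.38 in WT at 0 min and 11.36, 11.44 and 11.36 in D310N, against 11.83, 11.87 and 11.75 in WT at 120 min. The D310N libraries lay below all WT libraries at both times (-0.32 ± 0.06, adjusted p = 0.000732 and -0.43 ± 0.06, adjusted p = 1.37e-05). At 360 min Sp100 read 13.46, 13.50 and 13.48 in D310N, against 13.19, 13.56 and 13.48 in WT, with overlap (0.07 ± 0.06, not called; -0.04 without WT replicate 1, adjusted p = 0.689). Daxx read 11.96, 11.88 and 11.90 in D310N, against 12.23, 12.17 and 12.17 in WT at 120 min, without overlap (-0.28 ± 0.05, adjusted p = 0.000230). At 360 min Daxx read 12.79, 12.78 and 12.77 in D310N, against 13.11, 12.88 and 12.82 in WT, also without overlap (-0.16 ± 0.05, adjusted p = 0.0363); without WT replicate 1 it stood at -0.07 (adjusted p = 0.305). Pml differed by -0.45 ± 0.06 at 120 min.

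The remaining 12 members act in other ways; 7 of them were called lower at 0 min and 11 at 30, 60 and 120 min. Isg20, an exonuclease that degrades viral RNA, had the largest average difference of all 44. It read 6.66, 6.80 and 6.52 in D310N, against 7.26, 7.14 and 7.19 in WT at 0 min and 8.11, 8.35 and 8.02 in D310N, against 9.03, 8.95 and 8.97 in WT at 120 min. At 240 min it read 10.38, 10.54 and 10.38 in D310N, against 11.10, 11.08 and 11.09 in WT and at 360 min 10.74, 10.96 and 10.79 in D310N, against 11.02, 11.32 and 11.43 in WT. D310N libraries lay below all WT libraries at each of these times. The difference was -0.82 ± 0.09, adjusted p = 1.19e-07 at 120 min, a level 43.5% lower, and -0.43 ± 0.09, adjusted p = 0.00144 at 360 min; the calls at all 6 times held without any one library.

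Tor3a, a torsin ATPase of the endoplasmic reticulum, had the smallest average difference of these 12. At 0 min it read 11.52, 11.38 and 11.44 in D310N, against 11.50, 11.48 and 11.50 in WT, with overlap (-0.04 ± 0.04, adjusted p = 0.607), and at 120 min 12.17, 12.14 and 12.10 in D310N, against 12.49, 12.42 and 12.43 in WT, without overlap (-0.31 ± 0.04, adjusted p = 3.75e-06). Ifi27l2a differed by -0.29 ± 0.07 at 0 min, -0.55 ± 0.07 at 120 min and -0.43 ± 0.07 at 360 min, and Helz2, a helicase-like coactivator, by -0.30 ± 0.09, -0.39 ± 0.09 and -0.27 ± 0.09 at the same times. Their calls at 0 min were lost without 1 library for Ifi27l2a and without any one of 3 for Helz2, and that of Helz2 at 360 min without any one of 3. Ifi27, a relative of Ifi27l2a that is not a member, was called higher in D310N on average over the times (0.20 ± 0.03). Ifi44 differed by -0.71 ± 0.13 at 30 min. Ifi35 and Nmi, partners in a complex, differed by -0.36 ± 0.05 and -0.28 ± 0.05 at 120 min, Xaf1 by -0.45 ± 0.05 at 30 min, Lgals3bp by -0.38 ± 0.06 at 30 min and Epsti1 by -0.34 ± 0.05 at 120 min. Samd9l was called at 30 min alone (-0.26 ± 0.07, lost without either of 2 libraries) and Tdrd7 at 30, 60, 120 and 240 min, by -0.28 ± 0.04 at 120 min.

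**Figure D2:**
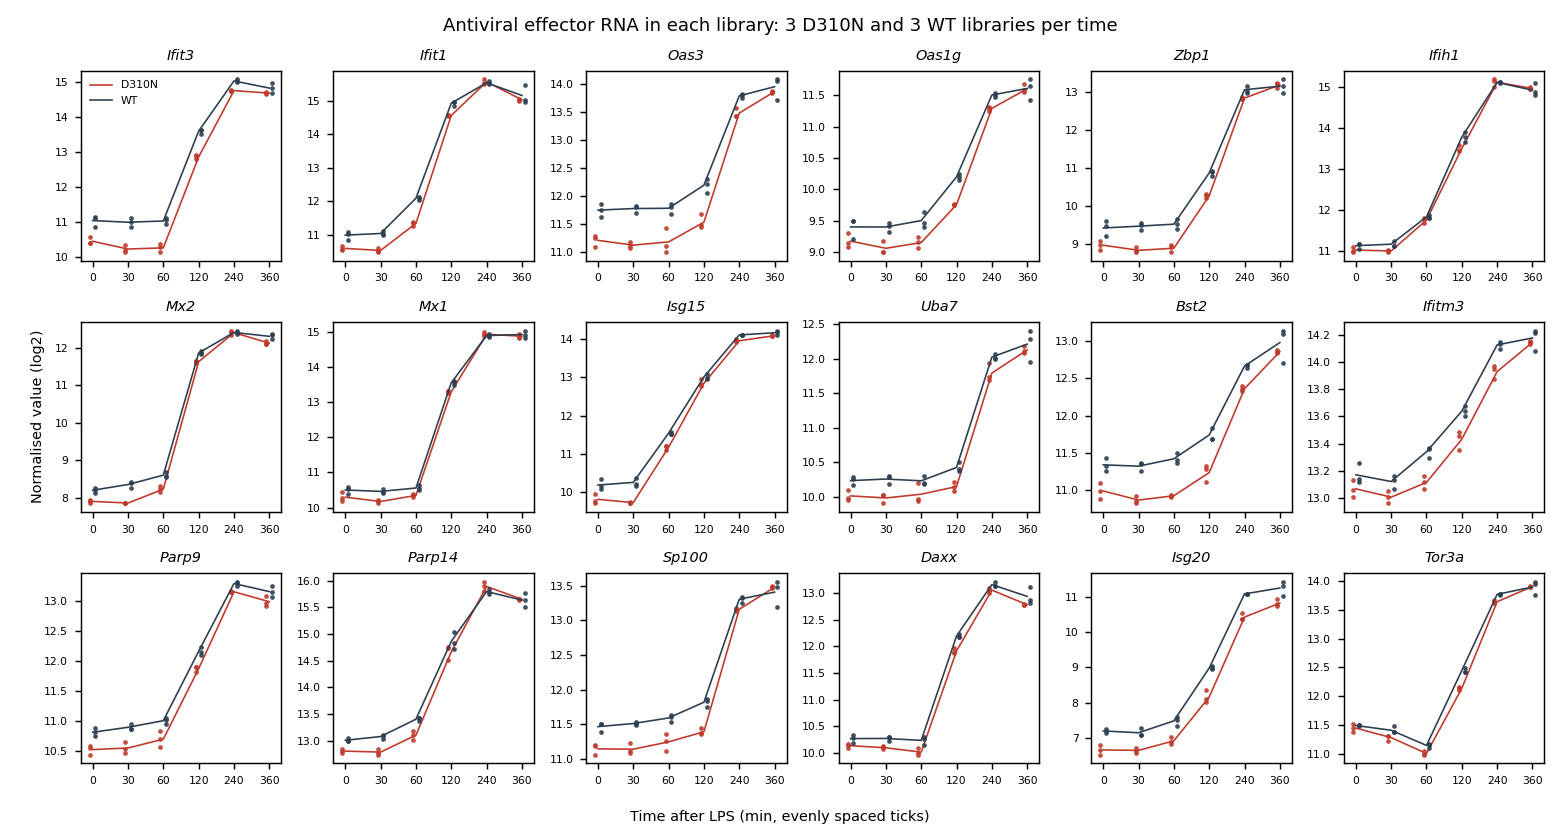
Normalised value (log2) at each time after LPS for the member with the largest and the member with the smallest average difference in each of the 9 groups. Points are single libraries (3 per genotype and time), lines join group means, D310N in red and WT in dark blue; the D310N lines run under the WT lines to 120 min and meet them at 240 or 360 min in most panels, with Isg20 apart at all times.

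By 240 min 17 members were still called lower, and 10 of them belonged to the group of other roles: Isg20 (-0.66), Ifi27l2a (-0.53), Helz2 (-0.33), Lgals3bp (-0.28), Epsti1 (-0.27), Nmi (-0.23), Ifi35 (-0.21), Xaf1 (-0.19), Tdrd7 (-0.16) and Tor3a (-0.13). The others were Ifit3, Oas1a, Oas3, Dhx58, Uba7, Bst2 and Ifitm3, described above. Of the 17 calls 12 held without any one library, and those of Oas1a, Oas3, Uba7, Xaf1 and Tor3a did not, with adjusted p up to 0.198 for Uba7 without D310N replicate 1. At 360 min the 8 called were Isg20 (-0.43), Ifi27l2a (-0.43), Helz2 (-0.27), Oas2 (-0.25), Mx2 (-0.18), Parp9 (-0.17), Daxx (-0.16) and Adar (-0.12). Of these the calls of Isg20 and Ifi27l2a held without any one library. The count at 360 min ranged from 2 to 14 when single libraries were left out: 14 without WT replicate 3, 2 without D310N replicate 1 or 3 and 5 without D310N replicate 2. Fitted on the 6 libraries of that time alone, 1 member was called at 360 min, and at 240 min 27 were.

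LPS raised the antiviral effectors in both genotypes, most of them after 60 min. At 30 min 0 members were called raised in D310N or in WT by limma, against 5.16% and 4.79% of all genes, and at an unadjusted p under 0.05 the counts were 0 in D310N and 1 (Mx2) in WT. In WT at 30 min 1 member was called under quantile normalisation. At 60 min 12 were raised in D310N and 18 in WT (21.3% and 20.1% of all genes). At 120 min 41 were raised in D310N and all 44 in WT (31.9% and 32.4%). Under quantile normalisation 9 of all 44 members in D310N and 6 in WT had a negative change at that time. At 240 and 360 min all 44 were raised in D310N (39.0% and 39.0% of all genes) and in WT (39.6% and 39.3%), with Ifi27l2a the exception in both genotypes under quantile normalisation, where its change was negative.

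A few members fell early. Tor3a fell by 0.16 at 30 min and 0.44 at 60 min in D310N, and by 0.35 at 60 min in WT; the call at 30 min was lost without D310N replicate 1 at 0 min or D310N replicate 2 at 30 min. Ifit3 and Oas2 were called lower at 60 min in D310N (-0.19 and -0.22) and Pml in WT (-0.17), calls lost without any one of 3 libraries for Ifit3 and Pml and of 4 for Oas2. These are 1 member at 30 min and 3 at 60 min in D310N and 2 at 60 min in WT, against 1.48%, 17.2% and 17.1% of all genes called lower in those comparisons.

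The largest rises at 240 min were those of Cmpk2, with 5.54 ± 0.09 in D310N and 5.35 ± 0.09 in WT, and Rsad2, with 5.47 ± 0.07 in D310N and 5.24 ± 0.07 in WT. Ifit2 followed with 5.06 ± 0.07 in D310N and 4.61 ± 0.07 in WT, then Ifit1 with 4.97 ± 0.08 in D310N and 4.54 ± 0.08 in WT and Mx1 with 4.63 ± 0.06 in D310N and 4.39 ± 0.06 in WT. The smallest were Ifi27l2a (0.30 ± 0.07 in D310N and 0.54 ± 0.07 in WT), Ifitm3 (0.87 ± 0.05 in D310N and 0.96 ± 0.05 in WT), Lgals3bp (1.26 ± 0.06 in D310N and 1.23 ± 0.06 in WT), Bst2 (1.37 ± 0.07 in D310N and 1.33 ± 0.07 in WT) and Epsti1 (1.49 ± 0.05 in D310N and 1.57 ± 0.05 in WT). The same genes stood at the top and at the bottom in both genotypes. The median member rise at 240 min was 2.54 in D310N and 2.44 in WT, and at 360 min 2.63 in D310N and 2.38 in WT (2.43 without WT replicate 1).

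The members did not rise together. In WT, 4 members had risen by at least 1 at 60 min, namely Oasl1 (1.51), Isg15 (1.35), Helz2 and Ifit1. In D310N, 3 had, and Ifit1 stood at 0.75. A called rise of at least 1 was first seen at 120 min for 20 members in each genotype, at 240 min for 19 in D310N and 18 in WT, and at 360 min for Ifitm3 in both. Ifi27l2a stayed under 1 in both. Uba7, Epsti1 and Ifi27l2a were not called raised in D310N at 120 min (0.14 ± 0.08, 0.10 ± 0.05 and 0.05 ± 0.07), where they were in WT (0.19 ± 0.08, 0.24 ± 0.05 and 0.31 ± 0.07). The D310N change minus the WT change was itself not called for these genes (-0.06, -0.14 and -0.26, limma adjusted p = 0.975, 0.668 and 0.341). The WT rises of these 3 at 120 min changed sign under quantile normalisation. The group mean was highest at 240 min for 20 members in D310N and 22 in WT, and at 360 min for 24 in D310N and 22 in WT.

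Timing was described by the point at which a member's group mean crossed the midpoint of its largest log2 rise, interpolated between the sampled times. This measure was added after the data were seen, and it carries no test. The midpoint time ranged from 84.4 to 193 min in D310N (median 150) and from 78.6 to 180 min in WT (median 133). It was later in D310N for 43 of 44 members, with a median difference of 8.40 min. Each midpoint rests on the genotype's own largest rise, which was larger in D310N for 42 of 44 members (median difference 0.20). A larger rise moves the midpoint later, so a later midpoint need not mean a later start. Isg15 changed by 1.36 and 3.03 in D310N at 60 and 120 min, against 1.35 and 2.82 in WT. Its midpoint was still later in D310N (87.9 against 85.9 min). Oasl1 was the earliest in both genotypes, at 84.4 min in D310N and 78.6 min in WT. The latest was Epsti1 in D310N, at 193 min, and Uba7 in WT, at 180 min. The exception was Oas2, at 164 min in D310N and 166 min in WT. Ifi27l2a had the widest gap, 192 min in D310N against 110 min in WT, on a rise of 0.406 in D310N and 0.544 in WT.

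Against a common level, the one at the midpoint of the WT rise, all 43 members whose D310N mean reached it did so later. The lag ranged from 4.94 min for Mx1 to 49.6 min for Ifitm3, with a median of 22.1 min, and Ifi27l2a did not reach its WT level by 360 min. This lag restates the level gap. All 44 member means were lower in D310N at 0 to 120 min and 40 at 240 min, and a lower mean crosses a fixed level later. It is therefore no separate measure of timing. Without WT replicate 1 at 360 min the same counts were 43 and 43, with medians of 7.30 and 21.7 min. The 6 sampled times set the resolution: the midpoints fall between 60 and 120 min or between 120 and 240 min, where the path was not measured.

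**Figure D3:**
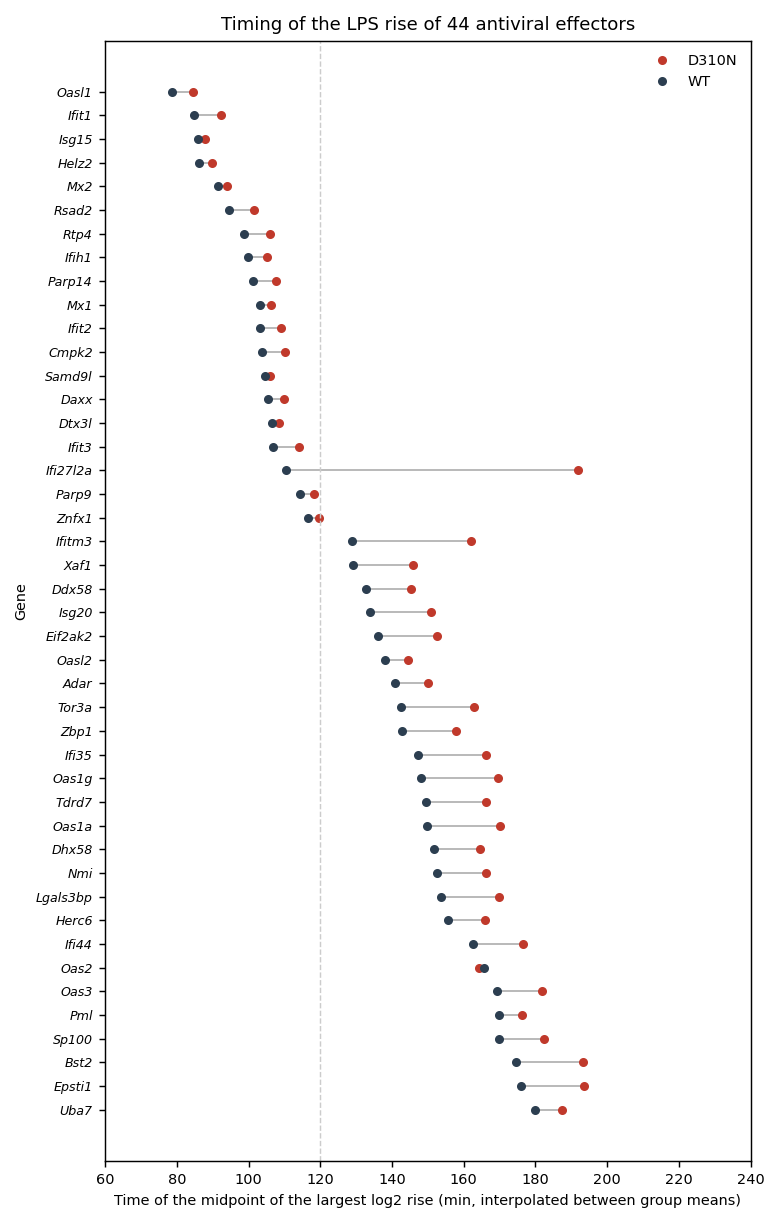
Interpolated time (min) at which each member's mean crossed the midpoint of its largest log2 rise after LPS, in D310N (red) and WT (dark blue), ordered by the WT time from Oasl1 at the top to Uba7. The red point lies to the right of the dark blue one for 43 of 44 members; the dashed line marks the sampled time of 120 min.

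Whether the LPS response itself differed was tested as the change from 0 min in D310N minus the change in WT. Over the 5 times together, 24 of the 44 members differed by limma's F test, where 4.84% of all genes did. They were all of the IFIT group, 5 of 6 OAS genes, both Mx genes, 2 of 3 of the ISG15 group, 4 of 7 sensors, 2 of 5 membrane and nucleotide genes, 1 of the Parp9 group, 2 of 3 PML body genes and 3 of the 12 others. The median response difference was -0.09 at 30 min, -0.07 at 60 min and -0.12 at 120 min, and 0.14 at 240 min and 0.19 at 360 min (0.16 without WT replicate 1). The response of D310N cells was thus smaller in the first 120 min and larger from 240 min on, in the median.

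Few members passed at a single time. At 30 min limma called 0 members in either direction, with 0% of all genes higher and 0% lower, and at 60 min 0, with 0.0257% of all genes higher and 0.0429% lower. At an unadjusted p under 0.05, 3 members were lower at 30 min and 6 at 60 min, and 0 were higher. At 120 min 1 was called lower (Tor3a, -0.27 ± 0.06, adjusted p = 0.0224), a call lost without any one of 6 libraries, where 0.480% of all genes were lower and 0.455% higher. At 240 min 4 were called higher and 0 lower (0.995% and 0.952% of all genes): Ifit1 (0.43 ± 0.11, adjusted p = 0.0374), Ifit2 (0.45 ± 0.09, adjusted p = 0.00798), Oas2 (0.46 ± 0.12, adjusted p = 0.0383) and Mx2 (0.29 ± 0.07, adjusted p = 0.0259). At 360 min 6 were called higher and 0 lower (1.01% and 0.995% of all genes): Ifit2 (0.38 ± 0.09, adjusted p = 0.0268), Ifit3 (0.45 ± 0.10, adjusted p = 0.0198), Oasl2 (0.39 ± 0.08, adjusted p = 0.00751), Ddx58 (0.38 ± 0.08, adjusted p = 0.0136), Zbp1 (0.49 ± 0.12, adjusted p = 0.0254) and Sp100 (0.39 ± 0.09, adjusted p = 0.0190). Without any one library 1 of the 4 calls at 240 min held (Ifit2, adjusted p = 0.0990 under quantile normalisation), and 2 of the 6 at 360 min did (Oasl2 and Ddx58).

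Mx2 and Zbp1 show how levels and responses relate. Mx2 rose by 4.51 in D310N and 4.22 in WT by 240 min, from levels that differed by -0.30 to levels that differed by -0.01. Zbp1 rose by 4.20 in D310N and 3.72 in WT by 360 min, where its levels differed by 0.03 (-0.06 without WT replicate 1), neither called. The counts moved with single libraries, from 1 to 9 at 240 min and from 2 to 14 at 360 min; without WT replicate 1 at 360 min they were 9 and 10, and the joint count was 27. With the replicate number as a block 7 were higher at 240 min and 9 at 360 min. Every response difference is set against the same 0 min libraries, so the 5 times are not independent of each other.

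**Figure D4:**
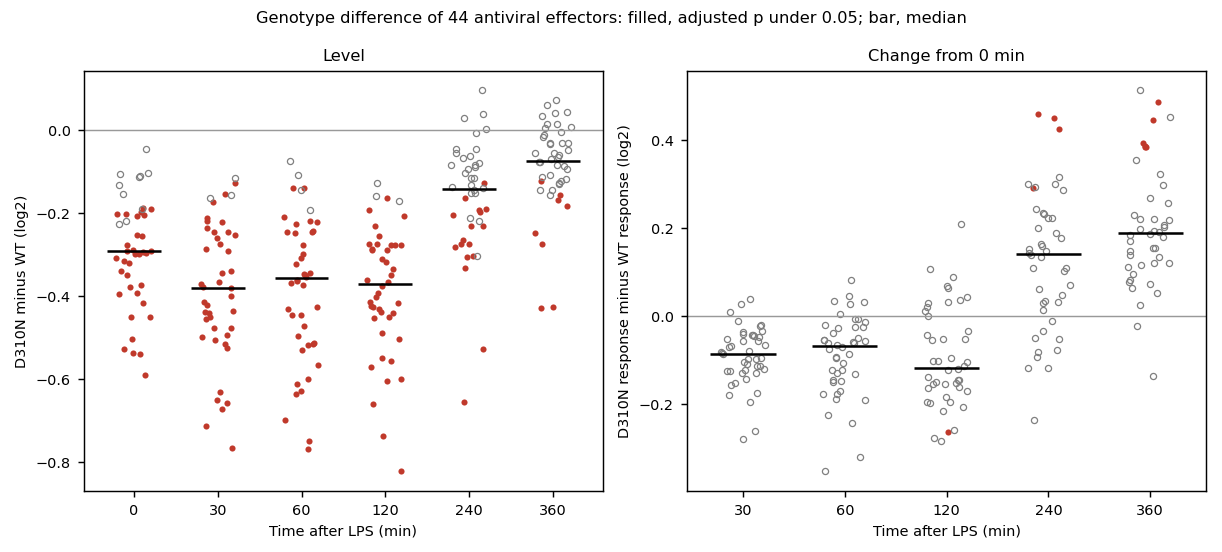
Left, D310N minus WT difference in level (log2) of the 44 members at each time; right, D310N minus WT difference in the change from 0 min (log2) at each LPS time. Filled points passed an adjusted p of 0.05, open points did not, and bars are medians: the median level difference is -0.37 at 120 min and -0.07 at 360 min, and the median response difference is -0.12 at 120 min and 0.14 at 240 min.

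The genes that induce and carry the interferon signal were followed with a list of 24, of which 21 passed the filter; Ifna2, Ifna4 and Ifna5 did not. Called lower in D310N were 4, 6, 6, 7, 3 and 4 of the 21 from 0 to 360 min in order, and called higher 0, 1, 0, 2, 2 and 1. Of all tested genes 7.09%, 7.78%, 7.96%, 9.72%, 10.0% and 9.52% were called lower at these times, and 3.64% to 7.94% higher over them. Ifnb1, interferon beta itself, was low before LPS, at 4.60, 4.50 and 4.52 in D310N, against 4.68, 4.53 and 4.76 in WT. At 60 min it read 8.0, 8.18 and 8.10 in D310N, against 9.12, 9.10 and 9.03 in WT, a gap without overlap (-0.99 ± 0.22, adjusted p = 0.00163) or a level 49.7% lower. At 120 min it read 9.36, 9.29 and 9.13 in D310N, against 9.72, 9.87 and 9.85 in WT, also without overlap but not called (-0.55 ± 0.22, adjusted p = 0.0773). At 360 min it read 7.16, 7.20 and 7.16 in D310N, against 8.60, 6.76 and 7.59 in WT, and the WT libraries spread far more widely than the D310N libraries.

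Irf7, the interferon-induced factor of the second round, was lower at every time up to 240 min. It read 11.14, 11.12 and 10.84 in D310N, against 11.88, 11.76 and 11.47 in WT at 0 min and 10.70, 11.14 and 10.90 in D310N, against 11.76, 11.88 and 11.60 in WT at 60 min, without overlap (-0.67 ± 0.11, adjusted p = 8.07e-05 and -0.83 ± 0.11, adjusted p = 3.03e-06). At 360 min it read 14.60, 14.63 and 14.59 in D310N, against 14.38, 14.93 and 14.88 in WT, and WT replicate 1 lay below the D310N libraries. That library also had the most Ifnb1 of the WT libraries at 360 min, and over all tested genes it lay closer to WT at 240 min. The WT libraries at 240 min read 14.40, 14.43 and 14.37 for Irf7 and 8.46, 8.06 and 8.55 for Ifnb1. Stat2 was lower at 0, 30 and 60 min (-0.43 ± 0.06 at 30 min). Irf9 read 10.19, 10.33 and 10.25 in D310N, against 10.47, 10.51 and 10.44 in WT at 60 min, without overlap (-0.22 ± 0.04, adjusted p = 0.000972).

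Usp18, which removes ISG15 and dampens the receptor, was lower at each time up to 240 min (-0.59 ± 0.06 at 30 min), the call at 240 min being lost without either of 2 libraries. Socs1, an inhibitor of the receptor's kinases, was lower at 120 min (-0.59 ± 0.14), as was Irf8 (-0.48 ± 0.09). Tlr4 differed by -0.26 ± 0.06 at 120 min. The receptor chains Ifnar1 and Ifnar2 were higher by 0.22 ± 0.06 and 0.17 ± 0.04 at 120 min. A list of 15 primary inflammatory targets of NF-κB that LPS also induces was counted as well. From 0 to 360 min in order 1, 1, 3, 1, 1 and 3 were called lower, against 7.09%, 7.78%, 7.96%, 9.72%, 10.0% and 9.52% of all genes. Called higher were 0, 0, 0, 3, 0 and 1, against 3.64%, 4.43%, 4.89%, 7.94%, 6.98% and 6.80%. The counts of 3 of 15 lay above the share of all genes, and the other counts lay below it. Traf1 was lower at all 6 times (-0.31 ± 0.02 on average), and Cxcl1 (0.83 ± 0.24), Cxcl2 (0.58 ± 0.19) and Il1b (0.24 ± 0.07) were higher at 120 min, calls that were each lost without D310N replicate 1 (adjusted p = 0.106, 0.112 and 0.167).

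**Figure D5:**
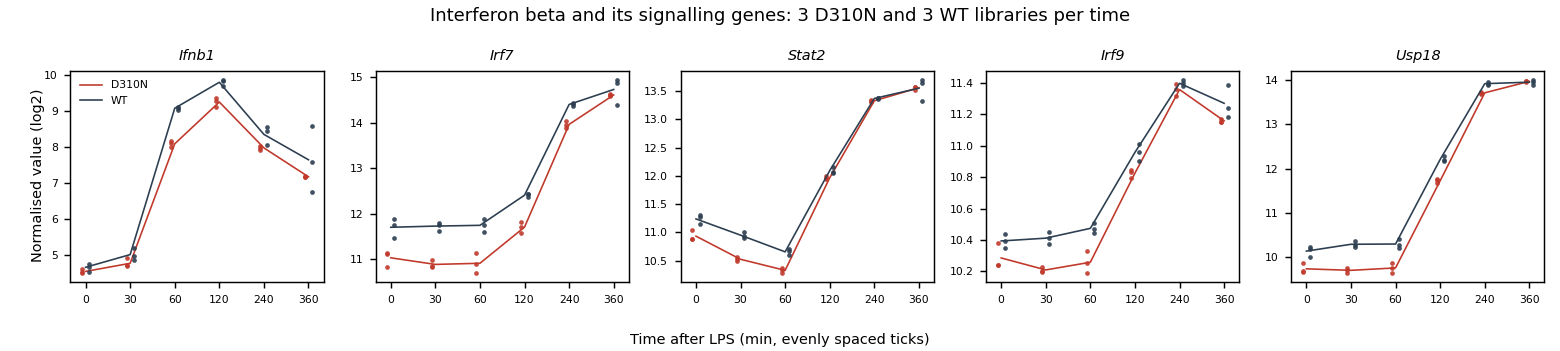
Normalised value (log2) of Ifnb1, Irf7, Stat2, Irf9 and Usp18 at each time after LPS, 3 libraries per genotype and time (points) with group means (lines), D310N in red and WT in dark blue. Irf7 and Usp18 run lower in D310N to 240 min, Ifnb1 separates at 60 min, and the WT points of Ifnb1 at 360 min lie between 6.76 and 8.60.

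Annotated positions on GRCm38 (GENCODE M21) place the 44 members on 15 chromosomes. Chromosome 5, which carries Tnip2 at chr5:34496087-34513991, holds 6 of them, the OAS genes between chr5:114896936 and chr5:120907521. The 3 Ifit members lie together on chromosome 19, and 6 members lie on chromosome 16. Exons of another annotated gene overlap 14 members, among them Oasl1, Dhx58, Adar, Ifi35, Parp9 and Dtx3l on the opposite strand; whether the counting used strand is not given in the sources used here, so the values of these members may hold reads of their neighbours. Tnip2 itself was close to equal in the genotypes, with differences from -0.17 at 360 min to 0.18 at 240 min, and was called at 240 min alone.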

How the data were processed

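The deposited table holds 16439 rows and 36 columns of normalised values on a log2 scale, made by the authors; the transformation is not given in the sources used here. The submitters' processing notes name STAR 2.5.2a, RSEM 1.2.31, DESeq2 1.10.1 and the build mm10. Since the values are RSEM estimates, reads shared by near-identical genes were divided by estimation. The design had foreseen linear values; as the table turned out to be logged, no pseudocount was added. The 23 rows whose symbols had turned into dates were left out.

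limma 3.58.1 in R 4.3.3 was fitted to the log2 values with 1 mean per group over all 36 libraries and an intensity trend, with 24 residual degrees of freedom. Genes needed a log2 value of 3.32 (10 unlogged) in 3 libraries, which left 11656, and p-values were adjusted over all of them by Benjamini and Hochberg. Contrasts were D310N minus WT at each time and on average, LPS minus 0 min within a genotype, and the difference of those changes per time and over the 5 times (F test). The fit was tested on simulated data with known answers, for D310N against WT at 0 min. It recovered 30% of the changed genes at a difference of 0.25, 72% at 0.5 and 96% at 1, with 4 false calls. The simulation changed 50 of 11656 genes at each difference, while 826 genes were called lower and 424 higher at 0 min in these data. The adjusted threshold depends on how many genes change, so the shares recovered need not hold here. Differences of 0.25 or less often stayed uncalled in the simulation and can stay uncalled here too. Alternatives were a replicate block, no filter, quantile and trimmed mean scaling, pseudocounts of 1 and 8, single time points and each library left out. Of the library pairs 0 were identical.

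Replicate numbers were checked for pairing by correlating deviations from the group means. Of 10 LPS comparisons 1 (D310N at 120 min) had all 3 correlations over 0.1, and of 6 genotype comparisons 0. The members and the other lists were chosen with earlier results of these data known. In each of the 9 groups the members with the largest and the smallest average difference are given with values by library, at times picked after the values were seen; all 36 libraries are in the plot of members by library. Promoters come from RefSeq, and positions from GENCODE M21. One gene of the interferon signalling list is not reported here.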

Additional observations from a re-analysis of the deposited data

Results flagged for a closer look

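These results are listed because the change after LPS differed between D310N and WT cells by a test of the difference itself, limma with adjustment over 11656 genes. At single times the D310N change minus the WT change (log2) was 0.43 for Ifit1, 0.45 for Ifit2, 0.46 for Oas2 and 0.29 for Mx2 at 240 min. At 360 min it was 0.38 for Ifit2, 0.45 for Ifit3, 0.39 for Oasl2, 0.38 for Ddx58, 0.49 for Zbp1 and 0.39 for Sp100. At 120 min it was -0.27 for Tor3a, the one negative call. Without any one library the calls of Ifit2 at 240 min and of Oasl2 and Ddx58 at 360 min held, and the other 8 were each lost without at least 1 library.

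Over the 5 times together the adjusted p was lowest for Rtp4 (2.51e-05), Ifit2 (3.83e-05) and Ifit3 (0.000120). It was 0.000253 for Ifit1, 0.000320 for Oasl2, 0.000328 for Ddx58, 0.000459 for Mx2 and 0.000838 for Zbp1. Next came Rsad2 (0.00120), Isg15 (0.00242), Sp100 (0.00308), Xaf1 (0.00386), Eif2ak2 (0.00438) and Dhx58 (0.00632). It was 0.0121 for Herc6, 0.0130 for Oasl1, 0.0133 for Oas3, 0.0136 for Tor3a and 0.0187 for Parp14. Nearest to the threshold were Pml (0.0306), Ifi35 (0.0318), Oas1a (0.0377), Oas2 (0.0471) and Mx1 (0.0492). When single libraries were left out, 18 of these 24 calls held each time; Mx1 was lost in 28 of 36 such fits, Oas2 in 26, Oas1a in 18, Ifi35 in 11, Pml in 9 and Parp14 in 1.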

How the results depend on the processing

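Over the 225 called genotype differences of members and 9675 alternative fits the direction did not change, and 190 fits lost the call. Differences that were not called could change sign, as those of 10 members did at 360 min without WT replicate 1. Of 12771 fits of 297 called LPS changes 52 lost the call and 18 turned the sign. All 18 turned under quantile normalisation, which pulls every library to one distribution. In D310N the turned values were -0.00570 for Oas3, -0.0698 for Bst2, -0.0244 for Ifitm3, -0.00712 for Pml, -0.0690 for Sp100 and -0.00222 for Lgals3bp at 120 min, and -0.243 and -0.185 for Ifi27l2a at 240 and 360 min. In WT they were -0.00612 for Ddx58 and -0.131 for Ifitm3 at 60 min, -0.0473 for Uba7, -0.0308 for Ifitm3, -0.0249 for Sp100, -0.0490 for Lgals3bp, -0.00591 for Epsti1 and -0.0693 for Ifi27l2a at 120 min, and -0.130 and -0.122 for Ifi27l2a at 240 and 360 min. For the LPS change in D310N at 240 min the median of all genes was -0.106 under that scaling, against -0.02 in the main values. Of 1505 fits of 35 called response differences 148 lost the call and 0 turned. The cause was not tested.

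Counts moved as follows. Quantile normalisation gave 10 members lower and 1 higher at 240 min, 5 lower at 360 min, 1 raised in WT at 30 min and 10 at 60 min, and 9 and 10 with a larger D310N response at 240 and 360 min. Without the filter 5 were lower at 360 min. The 6 libraries of a time alone gave 27 lower at 240 min and 1 at 360 min. With single libraries left out, 2 to 14 were lower at 360 min, 0 to 1 raised in WT at 30 min, 0 to 2 had a smaller D310N response at 60 min and 0 to 2 at 120 min, 1 to 9 a larger one at 240 min and 2 to 14 at 360 min.

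The labels do not say whether the replicate numbers pair samples. In 1 LPS comparison, D310N at 120 min, all 3 correlations were over 0.1, and the block within genotype left 41 members raised there. D310N at 240 min fell just short of that cut (0.166, 0.288 and 0.0998), so the cut does not set 120 min apart. With the replicate block 35, 42, 40, 43, 20 and 9 members were lower in D310N from 0 to 360 min, 7 had a larger response at 240 min (8 with a block within genotype) and 1 was raised in WT at 30 min with the block within genotype. Of the D310N libraries 16 of 18 correlated best with their own number, and of the WT libraries 7 of 18. All 15 correlations of the D310N LPS comparisons were positive, from 0.0366 to 0.419, a hint from the data and not from the design. Read depth is not given by these values, so no limit from depth can be set.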
